A study of Homo sapiens with 6 samples.

Results

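The Fanconi and homologous recombination genes examined here are 35 named genes of DNA repair, chosen by gene symbol from the 35993 genes of the deposited table, and all 35 were found. They were measured by RNA-seq in MIA PaCa-2, an established human pancreatic carcinoma cell line. There were 3 libraries from untreated cells and 3 from cells given 4 µM rhCYGB, a recombinant human cytoglobin protein made in bacteria, for 48 h in low-serum medium. The groups carried no genetic change relative to each other, and the comparison asks how these genes differed in RNA level after the added protein. The labels do not say whether the libraries of a group came from separate cultures, so the p-values below measure the spread between these libraries, which may be technical. Library totals ranged from 34838399 to 42271299 counts on genes, and libraries of 1 group correlated across genes at 0.987 or above. KRT8, KRT18 and VIM were abundant in all libraries, together at 11499 CPM or more (CPM is a gene's count relative to the TMM-scaled library size, in parts per 10 to the power 6), whereas EPCAM had 0 counts and CDH1 was at or near 0. The 5 stellate or fibroblast markers summed to between 138 and 149 CPM in untreated and between 6.25 and 8.03 CPM in treated libraries, nearly all of it COL1A2, with DCN and LUM at 0. The 3 endothelial markers summed to between 109 and 122 against between 10.5 and 13.6 CPM, nearly all CDH5, with PECAM1 at 0. The 3 leukocyte markers summed to between 34.3 and 38.0 against between 70.4 and 72.4 CPM, all CD68, with PTPRC and CD3E at 0, and the 3 acinar markers were at 0. The part of these shifts in the values below was not tested.

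When a replication fork meets an interstrand crosslink, the Fanconi core complex and the E2 enzyme UBE2T attach ubiquitin to the FANCD2-FANCI clamp. The marked clamp recruits nucleases that unhook the crosslink and leave a broken chromatid. Homologous recombination then trims the broken end (MRE11-RAD50-NBN with RBBP8, also called CtIP, then EXO1 or helicase and nuclease pairs with BLM) and prepares the single strand for pairing with BRCA2, PALB2, BRCA1 and BARD1. RAD51B, RAD51C, RAD51D, XRCC2 and XRCC3 assist at this stage, and RAD54-type motor proteins help the strand to invade the sister chromatid. ATM and ATR are the kinases that sense breaks and stalled forks, and CHEK1 and CHEK2 pass the signal to the cell cycle. Many of these genes are transcribed mostly in cells that are about to replicate or are replicating DNA, under control of E2F factors.

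Promoter letters are shown for 3 members lower by 2-fold or more and for 3 members that rose. E2F sites are the best known shared element of replication and repair promoters. FANCL, RAD51AP1 and BLM were picked because they are the members lower by 2-fold or more with an E2F string in the bases printed. BRIP1, UBE2T, BRCA1 and FANCM, which fell by more than 4-fold, hold none there. Nor do FANCA, FANCB, FANCG, FANCD2, BRCA2, RAD51C, XRCC2, XRCC3 and EXO1, which also fell by 2-fold or more. FANCE, FANCF and RBBP8 are the members with the largest rise. The falling members were thus chosen by motif and the rising ones by size of change, so these lines do not compare falling with rising members. Each line gives the 120 bases just before the furthest upstream RefSeq start in GRCh38.p14, 5′ to 3′ on the gene's strand, and capitals mark matches to the motifs searched. That start, also for BRCA1, need not be the one used by the transcripts counted here.
FANCL, chr2:58241326-58241445, minus strand: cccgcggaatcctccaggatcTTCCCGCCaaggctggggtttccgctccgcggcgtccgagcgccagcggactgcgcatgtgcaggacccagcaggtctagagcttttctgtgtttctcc
RAD51AP1, chr12:4538770-4538889, plus strand: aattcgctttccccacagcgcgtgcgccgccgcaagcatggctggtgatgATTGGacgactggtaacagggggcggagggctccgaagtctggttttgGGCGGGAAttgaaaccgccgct
BLM, chr15:90717226-90717345, plus strand: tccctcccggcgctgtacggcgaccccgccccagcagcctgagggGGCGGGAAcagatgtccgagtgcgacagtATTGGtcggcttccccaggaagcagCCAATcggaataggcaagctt
FANCE, chr6:35452218-35452337, plus strand: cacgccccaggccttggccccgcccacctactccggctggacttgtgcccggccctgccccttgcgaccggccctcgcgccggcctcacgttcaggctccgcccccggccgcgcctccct
FANCF, chr11:22625824-22625943, minus strand: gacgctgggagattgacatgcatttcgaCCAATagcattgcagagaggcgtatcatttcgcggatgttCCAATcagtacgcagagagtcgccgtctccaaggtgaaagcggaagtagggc
RBBP8, chr18:22933208-22933327, plus strand: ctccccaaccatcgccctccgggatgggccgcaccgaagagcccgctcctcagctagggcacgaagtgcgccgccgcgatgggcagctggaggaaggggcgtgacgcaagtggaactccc
The motifs were the E2F strings TTTCGCGC, TTTGGCGC and TTCCCGCC, the CHR strings TTTGAA and TTCGAA, and CCAAT, each searched on both strands without allowing a mismatch. None of them contains another, although neighbouring matches may share bases. In the whole RefSeq window, from 250 bases before to 50 after a start, 10 of the 32 members with a window held an E2F string (31.2%), against 5.11% of all 27305 genes with a window and 8.62% of those that were tested for expression. Among the members lower by 2-fold or more 8 of 16 held an E2F string, and among the other members 2 of 16. The members with an E2F string were BLM, BRIP1, EXO1, FANCD2, FANCL, RAD51AP1, XRCC2 and XRCC3 in the first set and FANCC and RAD54L in the second. A CCAAT string was found in 15 of 32 members (46.9%), in 39.7% of all genes with a window and in 42.5% of those tested. A CHR string was found in 4 of 32 members (12.5%), in 19.5% of all genes and in 15.0% of those tested. Neither BRCA1 nor any of the 4 members with a window that were higher after rhCYGB held an E2F string in its window, which says only that these letters are not there.

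Most of the 35 genes fell after rhCYGB. All 35 had enough counts to be tested. With a Benjamini-Hochberg adjusted p below 0.05 in the quasi-likelihood test of edgeR, over all 14728 genes tested, 29 were lower, 5 were higher and RAD51D did not pass. By that rule 38.6% of all genes tested were lower and 39% higher, or 77.6% in either direction. When a change of at least 2-fold was also required, 17 members were lower (48.6%) and 0 higher, while 14.7% of all genes tested were lower and 12.4% higher, or 27.1% in either direction. Of all genes called, 54.2% were lower, and this share was 66.1% when libraries were scaled by total counts, 64.5% with upper-quartile scaling and 64.5% on log2(FPKM + 0.1), with 17, 17 and 18 members lower. The median log2 fold change of the members was -0.83, and that of all genes tested was -0.0046. The groups did not overlap for 33 of the 35 members, with PALB2 and RAD51D as the exceptions, and did not overlap for 79.5% of all genes tested. Without rhCYGB replicate 3 or without untreated replicate 1, FANCF was called higher, at log2 fold changes of 1.07 and 1.03. Over all alternative settings the smallest log2 rise was 0.51 for FANCF, 0.49 for FANCE and 0.74 for RBBP8. It was 0.25 for RAD50 and 0.11 for NBN. In bulk RNA, fewer cells in a phase of the cycle and less RNA per cell cannot be told apart.

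**Figure D1:**
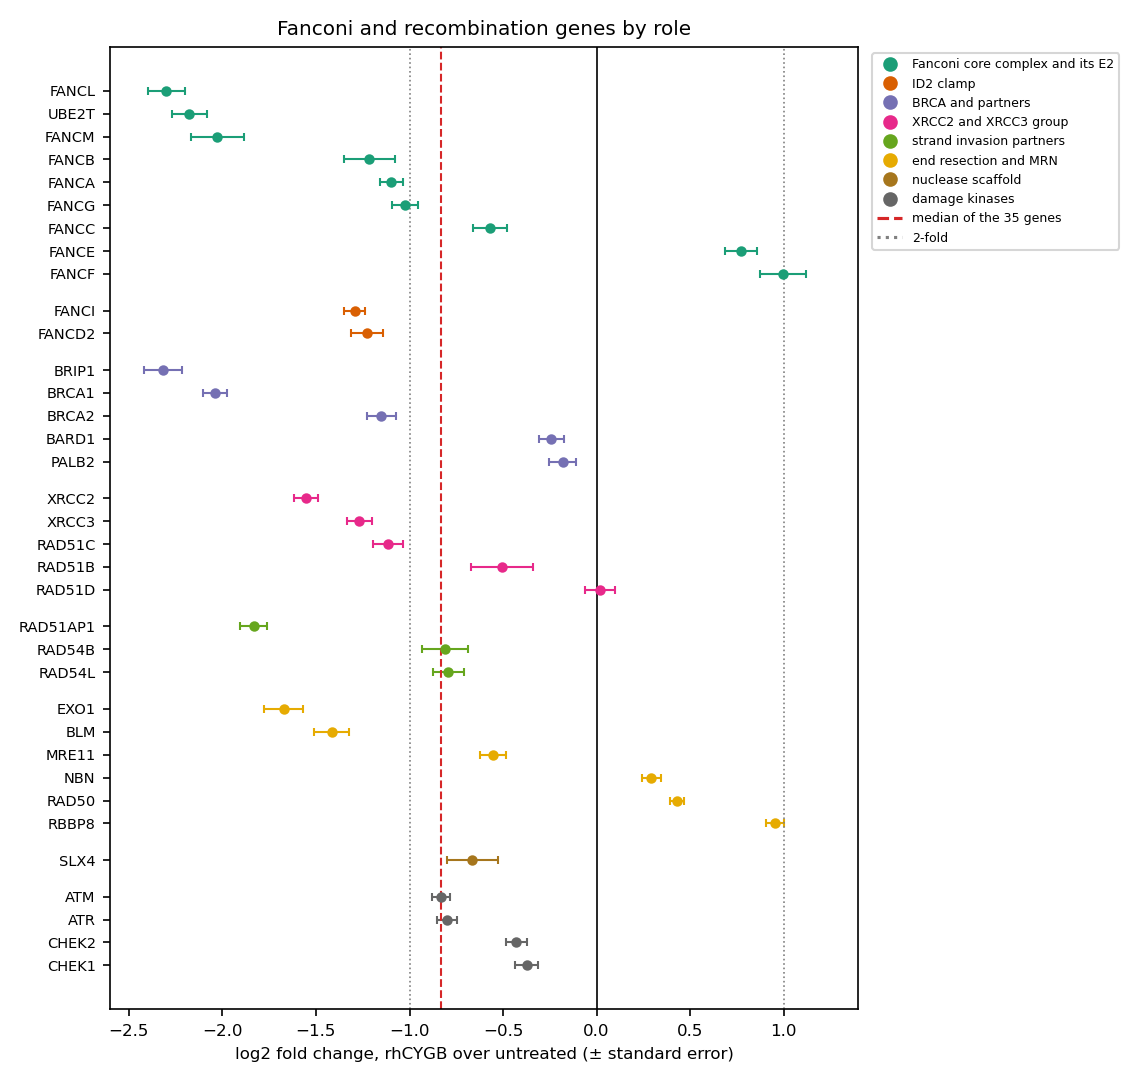
Log2 fold change of each of the 35 genes, rhCYGB over untreated (x axis, bars are standard errors from edgeR's fit, 3 libraries per group), grouped by role. The dashed line is the median of -0.83 and dotted lines mark 2-fold. The points run from BRIP1 at -2.32 to FANCF at 1.00.

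The genes also differed in level before treatment. On the deposited FPKM scale, which is per transcript length and so allows genes to be compared, UBE2T (18.5 ± 0.332, mean ± SD, n = 3 libraries) and RAD50 (18.4 ± 0.482) were highest in untreated cells and did not differ beyond their spread. CHEK2 followed at 16.0 ± 0.0275, and FANCM (1.46 ± 0.189) and FANCF (1.17 ± 0.0554) were the lowest. After rhCYGB the order was led by RAD50 (22.2 ± 0.897 FPKM) and RBBP8 (22.0 ± 1.18 FPKM), again within their spread. UBE2T moved from place 1 to place 12 of 35, BRCA1 from 17 to 30 and FANCL from 6 to 22, while FANCF moved from 35 to 23. The fold change had little relation to the untreated level, with a Spearman rho of -0.100 over the 35 genes, which share the same libraries.

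In the core complex group, 7 of 9 genes fell (77.8%, against 38.6% of all genes tested). By 2-fold or more 6 fell (66.7%, against 14.7%), and FANCE and FANCF rose (22.2%, against 39%). FANCL, the RING subunit that acts as the E3 ligase, was at 22.5, 20.9 and 22.3 CPM in the untreated libraries and at 4.79, 3.79 and 4.72 CPM after rhCYGB. The log2 change was -2.30 (SE 0.0973, adjusted p = 8.25e-12). SE is the standard error of the fit. UBE2T, the E2 enzyme that works with FANCL, was at 17.3, 17.8 and 17.4 against 3.85, 3.58 and 4.15 CPM, or -2.18 on the log2 scale (SE 0.0947, adjusted p = 1.13e-11). The catalytic pair fell by similar amounts, and the FPKM ratio of FANCL to UBE2T was 0.644 ± 0.0381 in untreated and 0.586 ± 0.0520 in treated libraries, with overlap. FANCM, the DNA translocase that anchors the complex to chromatin, was at 10.1, 10.2 and 12.4 against 2.26, 2.62 and 3.15 CPM, or -2.03 on the log2 scale (SE 0.142, adjusted p = 3.22e-09). For FANCL, UBE2T and FANCM every treated library lay far below every untreated one. The further subunits FANCB (-1.21), FANCA (-1.10) and FANCG (-1.02) fell by somewhat more than 2-fold. FANCC fell less, from 16.6, 21.1 and 19.5 to 12.6, 12.6 and 13.3 CPM (log2 change -0.57, SE 0.0883, adjusted p = 2.77e-05). FANCE, which bridges the core complex to FANCD2, rose from 9.13, 9.57 and 8.93 to 15.1, 15.3 and 16.8 CPM, a log2 fold change of 0.77. FANCF, an adaptor of the complex that is encoded by a single exon, rose from 4.38, 3.97 and 4.09 to 8.40, 9.02 and 7.41 CPM, a fold of 1.99 (adjusted p = 2.06e-06). FANCC, FANCE and FANCF, which bind each other in the complex, thus did not share a direction.

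Both clamp genes fell by similar amounts, each by 2-fold or more, against 14.7% of all genes tested. FANCI was at 63.0, 64.6 and 65.2 CPM in untreated and 28.3, 24.5 and 25.9 CPM in treated libraries, or -1.29 on the log2 scale (SE 0.0560, adjusted p = 1.06e-11). FANCD2 was at 18.4, 16.6 and 17.2 against 7.56, 7.39 and 7.32 CPM, or -1.23 on the log2 scale (SE 0.0833, adjusted p = 2.23e-09). The FPKM ratio of FANCD2 to FANCI was 0.247 ± 0.0165 before and 0.257 ± 0.0153 after, and the groups overlapped. Partial copies of FANCD2 lie elsewhere in the genome, so its level is uncertain to the extent that the counting split reads with them.

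**Figure D2:**
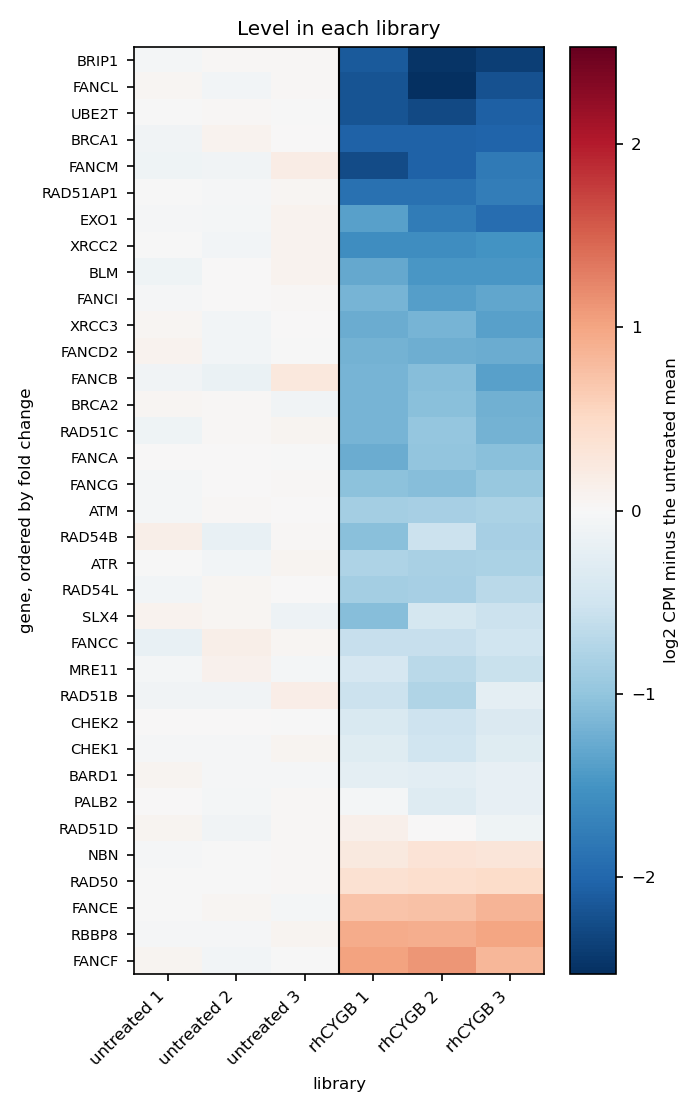
Log2 CPM of each gene (rows, ordered by fold change) in each of the 6 libraries (columns), minus the mean of the 3 untreated libraries. The 3 treated libraries share their colour for nearly all rows, from BRIP1 at the top to FANCF at the bottom.

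Among BRCA1, BRCA2 and their partners all 5 genes fell (against 38.6% of all genes tested), but by very different amounts. BRIP1, a helicase that binds BRCA1 and is also known as FANCJ, fell from 699, 895 and 812 counts to 167, 116 and 139 counts (log2 change -2.32, SE 0.102, adjusted p = 1.26e-11). With limma on log2(FPKM + 1) its change was -1.21. BRCA1, which with BARD1 forms a ubiquitin ligase that promotes end resection, was at 38.7, 43.6 and 41.3 CPM against 9.99, 9.98 and 10.1 CPM. The log2 change was -2.04 (SE 0.0652, adjusted p = 3.63e-13). BRCA2, which prepares the resected strand for pairing, fell by 1.15 on the log2 scale. The table, which names no genome build, places BRIP1 at chr17:59756500-59940889, BRCA1 at chr17:41196312-41277381 and BRCA2 on chromosome 13. BARD1 fell only from 19.9 ± 0.764 to 16.8 ± 0.291 CPM (log2 fold change -0.24). PALB2, the bridge between BRCA1 and BRCA2, was at 23.4, 22.4 and 23.6 against 22.5, 18.5 and 20.1 CPM, and 1 treated library lay within the untreated range (log2 change -0.18, SE 0.0720, adjusted p = 0.0315). Its call was lost with DESeq2 (adjusted p = 0.0625), without a filter on low counts (adjusted p = 0.05003) and without any of 4 single libraries, untreated replicates 1 and 3 and rhCYGB replicates 2 and 3 (adjusted p between 0.0702 and 0.148). On the FPKM scale BRCA1 was above BARD1 in every untreated library, with a ratio of 1.66 ± 0.174, and below it in every treated library, with a ratio of 0.450 ± 0.0110. The ratio of BRCA2 to PALB2 was 0.315 ± 0.0222 before and 0.162 ± 0.0243 after. In both pairs the ratios of the groups did not overlap. Such ratios were computed for 9 pairs, chosen after the values had been seen, so no test was made of them. Among the 9, the ratio of RAD50 to NBN was 2.71 ± 0.0257 before and 2.98 ± 0.0882 after, without overlap. That of FANCA to FANCG was 1.17 ± 0.0185 before and 1.21 ± 0.118 after, with overlap. Overlap of ratios was not computed for other gene pairs, and 79.5% of all genes tested did not overlap singly in CPM. FPKM also depends on how reads were assigned to transcripts.

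**Figure D3:**
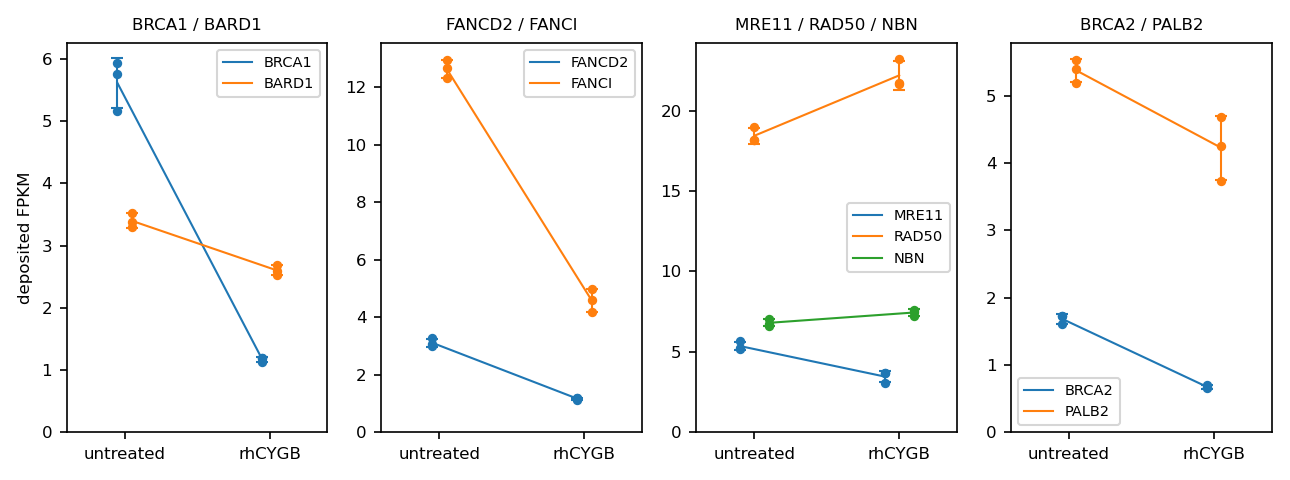
Deposited FPKM of genes whose proteins form complexes, per library (points) with the mean and SD of 3 libraries per group (lines and bars), each panel starting at 0. The BRCA1 and BARD1 lines cross, from a ratio of 1.66 to 0.450, while FANCD2 and FANCI fall side by side.

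The proteins of RAD51B, RAD51C, RAD51D, XRCC2 and XRCC3 form small complexes that assist recombination. Of these genes 4 of 5 fell (80%, against 38.6% of all genes tested), and 3 by 2-fold or more (60%, against 14.7%). XRCC2 had the largest fall, from 30.5, 29.5 and 32.5 to 10.3, 10.4 and 10.8 CPM (log2 change -1.55, SE 0.0659, adjusted p = 8.39e-12). XRCC3 was at -1.27, RAD51C at -1.12 and RAD51B at -0.50, and the RAD51B call was lost without untreated replicate 3 (adjusted p = 0.0584). RAD51D, which did not pass the test, was at 17.4, 15.5 and 16.8 against 18.2, 16.7 and 15.4 CPM (log2 change 0.02, SE 0.0797, adjusted p = 0.827). RAD51D lies inside the listed read-through gene RAD51L3-RFFL over all of its 27649 bases, and that gene had 57, 50 and 73 counts in untreated and 429, 963 and 592 counts in treated libraries (log2 fold change 3.67). The reads of the 2 genes were divided by the authors' quantification, and the part of that division in the RAD51D value was not tested. XRCC3 overlaps KLC1 by 3935 bases, and KLC1 moved the other way, by 0.96 on the log2 scale. FANCL overlaps the rising gene VRK2 (1.39) by 678 bases and FANCA overlaps ZNF276 (0.42) by 3377 bases. RAD54L overlaps LRRC41 (0.27) by 74 bases. FANCI overlaps POLG, which fell as FANCI did (-0.49), by 955 bases. The files do not say whether reads were counted by strand.

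All 3 genes that assist strand invasion fell, against 38.6% of all genes tested. RAD51AP1, which stimulates strand invasion, was at 26.3, 25.8 and 27.5 CPM in untreated and 7.19, 7.21 and 7.92 CPM in treated libraries. The log2 change was -1.83 (SE 0.0739, adjusted p = 4.65e-12). The motor proteins RAD54L and RAD54B fell by less than 2-fold, and nearly equally. RAD54L was at 16.4, 17.9 and 17.4 against 9.50, 9.65 and 10.7 CPM (log2 change -0.79, SE 0.0820, adjusted p = 3.30e-07), and RAD54B was at -0.81.

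Of the 6 genes of end resection, 3 fell and 3 rose (50% each, against 38.6% and 39% of all genes tested). The nuclease EXO1 fell from 28.3, 28.2 and 30.8 to 11.1, 8.54 and 7.65 CPM (log2 change -1.67, SE 0.104, adjusted p = 7.78e-10). The helicase BLM, which acts in long-range resection and in dissolving joint molecules, fell from 15.2, 16.5 and 17.3 to 6.68, 5.83 and 5.83 CPM (log2 change -1.42, SE 0.0950, adjusted p = 1.96e-09). These genes act after the break has first been nicked and trimmed. Of the genes that start resection, RBBP8 rose from 43.6, 43.6 and 46.8 to 85.8, 83.9 and 89.4 CPM (log2 change 0.95, SE 0.0472, adjusted p = 5.09e-11). RAD50, the long coiled-coil ATPase of the complex, rose from 162, 161 and 167 to 215, 220 and 227 CPM (log2 fold change 0.43). NBN, the subunit that recruits ATM, rose from 33.3, 33.8 and 34.8 to 40.1, 43.0 and 41.8 CPM (log2 change 0.29, SE 0.0510, adjusted p = 8.98e-05). The NBN call was lost with limma on the FPKM values, at adjusted p values of 0.0797 and 0.0769 for the larger and smaller pseudocount. MRE11, the nuclease of the same complex, fell from 36.6 ± 2.26 to 25.0 ± 2.25 CPM (log2 fold change -0.55). The FPKM ratio of MRE11 to NBN was 0.789 ± 0.0513 in untreated and 0.466 ± 0.0537 in treated libraries, with no overlap.

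SLX4, the scaffold that holds the crosslink nucleases, was at 12.3, 12.0 and 10.6 against 5.52, 8.54 and 8.03 CPM (log2 change -0.67, SE 0.136, adjusted p = 0.000391). The treated libraries differed among themselves here more than for most members. All 4 damage kinases fell (against 38.6% of all genes tested), each by less than 2-fold. ATM was at 61.5, 65.2 and 64.2 against 34.9, 35.6 and 36.7 CPM (log2 change -0.83, SE 0.0478, adjusted p = 3.01e-10), and ATR at -0.80 was close to it. The kinases downstream fell less. CHEK1 was at 34.0, 33.9 and 36.6 against 28.0, 24.4 and 28.1 CPM (log2 change -0.37, SE 0.0637, adjusted p = 7.11e-05), and CHEK2 was at -0.43. CHEK2 has partial copies elsewhere in the genome, with the same limit as FANCD2. The FPKM ratio of CHEK1 to ATR was 1.41 ± 0.0416 before and 1.88 ± 0.111 after, and that of CHEK2 to ATM was 3.41 ± 0.0858 before and 4.50 ± 0.169 after, without overlap in either pair.

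The deposited transcript table lists 117 transcripts of the 35 genes, of which 84 had enough counts to be tested. Among them 20 were at least 2-fold lower and 3 at least 2-fold higher with adjusted p below 0.05 (edgeR, 32577 transcripts), against 8.32% and 8.62% of all transcripts tested. The 3 higher ones belong to BRCA1 and FANCC, which fell as genes. NM_007294, transcript variant 1 of BRCA1 at 7088 bases, had 1379, 1584 and 1559 reads in untreated libraries and 20, 6 and 0 in treated libraries. Its share of the gene's reads was 89.8% ± 7.73 (SD, n = 3) before and 2.40% ± 2.74 after. NR_027676, listed without a protein at 7152 bases, had 26, 70 and 25 against 298, 290 and 165 reads, a share of 2.29% ± 1.13 before and 70.7% ± 23.1 after (log2 change 2.80, SE 0.528, adjusted p = 0.0121). NM_007300, at 7151 bases, had 0, 1 and 5 against 40, 36 and 203 reads. In every treated library most BRCA1 reads were thus assigned to a transcript other than NM_007294, and in every untreated library to NM_007294. These 3 transcripts have the same first and last position in the table and differ little in length, and the reads were divided between them by the authors' quantification. FANCC showed a smaller shift, with NM_001243744 at 5, 8 and 12 reads before and 80, 22 and 65 after, or 1.06% ± 0.394 and 11.8% ± 6.03 of the gene's reads.

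**Figure D4:**
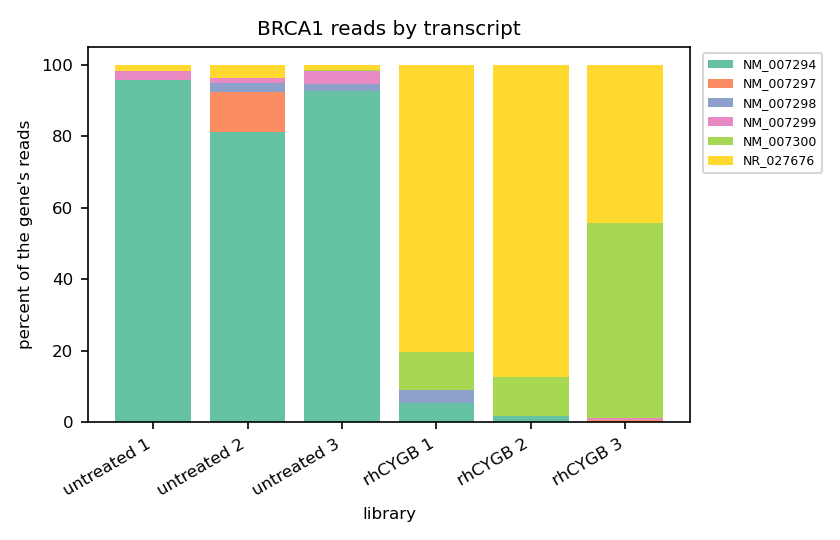
Share of BRCA1 reads assigned to each listed transcript (stacked bars, percent of the gene's reads) in each library. NM_007294 holds 89.8% ± 7.73 of reads in the untreated libraries and 2.40% ± 2.74 in the treated ones.

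Such assignments were not stable for all members. ATM reads went to NM_000051 in 1534, 2923 and 0 cases and to NM_001351834 in 750, 0 and 2612 cases in the 3 untreated libraries, although the gene's total was 61.5, 65.2 and 64.2 CPM. FANCD2 behaved in the same way, with 280, 704 and 0 reads on NM_001018115 and 396, 0 and 703 on NM_001319984. For BLM the treated libraries differed, with 560, 717 and 676 reads on NM_000057 before and 0, 0 and 213 after. On NM_001287248 it had 6, 5 and 5 reads before and 207, 185 and 0 after. The BRCA1 shares come from the same kind of assignment. The transcript counts of every member add up to its gene count. This sum does not show how division of reads with an overlapping gene, as at RAD51D, affected a total. FPKM is summed over transcripts of different length and can change with such assignments.

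Pathway genes outside the 35 fell and rose. Of 46 tested genes of crosslink repair and recombination, 30 passed edgeR's test as lower (65.2%, against 38.6% of all genes tested). As higher 9 passed (19.6%, against 39%). By at least 2-fold, 16 were lower (34.8%, against 14.7%) and 2 higher (4.35%, against 12.4%). The median of the 46 was -0.62 on the log2 scale. The call of SWSAP1 as lower was lost with DESeq2, without a filter on low counts and with replicate number as a block. It was also lost on leaving out any single library other than rhCYGB replicate 2. That of DMC1, lower by 2-fold, was lost with limma on the FPKM values and without untreated replicate 3. ERCC4 lost its call as lower without rhCYGB replicate 2 or untreated replicate 2, and ABRAXAS1 its call as higher with limma on the FPKM values. RMI2, a partner of BLM, had the lowest value (-2.44), followed by the polymerase POLQ (-1.87) and RPA1, a subunit of the single-strand binding protein RPA (-1.75). The highest were MUS81, a nuclease that cuts joint molecules (1.71), UIMC1, also called RAP80, which holds BRCA1 on ubiquitin chains (1.37), and RAD52 (0.89). EME1, the partner of MUS81, was at -1.65. RAD51AP2 had too few counts for a test. Among 24 genes of damage signalling, which act around the 4 kinases, 14 were lower (58.3%, against 38.6% of all genes tested) and 6 higher (25.0%, against 39%). The median was -0.22, and -0.39 with total counts. The calls of RAD17 and RIF1 as higher were lost with total counts, upper-quartile scaling and limma on the FPKM values. The call of RAD1 as lower was lost with DESeq2, without a filter on low counts and with replicate number as a block. It was also lost on leaving out any single library other than untreated replicate 1. CLSPN, the mediator between ATR and CHEK1 (-2.16), H2AX (-2.05) and ETAA1 (-1.33) were lowest, and HUS1 (1.58), RAD9A (1.35) and WEE1 (0.74) were highest.

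Proliferation genes moved with the members. Of 14 S-phase genes 13 fell at least 2-fold (92.9%, against 14.7% of all genes tested), with a median of -1.62 on the log2 scale. Of 10 G2/M genes all 10 fell at least 2-fold, with a median of -1.42. CDT1 was the S-phase gene that rose (0.27), a call that was lost with limma on the FPKM values. PCNA, MCM3 and RRM2 were lowest among the first (-2.41, -2.41 and -2.20) and BIRC5, MKI67 and AURKA among the second (-2.21, -1.998 and -1.72). The smallest fall among the falling genes of both lists was that of MCM5 (-1.03). Of the 29 members that passed as lower, 16 were at least as low as MCM5 and 13 were less low, among them all 4 damage kinases, BARD1 and PALB2. The part of the cell cycle distribution in the members' values was not tested. End joining, the other main route of break repair, had 4 genes lower (36.4%) and 6 higher (54.5%) of 11 tested, against 38.6% and 39% of all genes, with 1 lower and 0 higher at 2-fold. Its median was 0.28 on the log2 scale, 0.11 with total counts, 0.14 with upper-quartile scaling, 0.10 on log2(FPKM + 0.1) and 0.078 on log2(FPKM + 1). XRCC4 (-1.40), PRKDC (-0.67) and XRCC6 (-0.48) were lowest there, and POLL (0.88), NHEJ1 (0.80) and POLM (0.79) highest. The calls of LIG4 and PAXX as higher were lost with total counts, upper-quartile scaling and limma on the FPKM values. The PAXX call was also lost with DESeq2 and with at least 10 counts required in every library. Leaving out any single library other than rhCYGB replicate 3 lost it too. These counts and medians stand side by side, and the difference between lists was not tested.

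**Figure D5:**
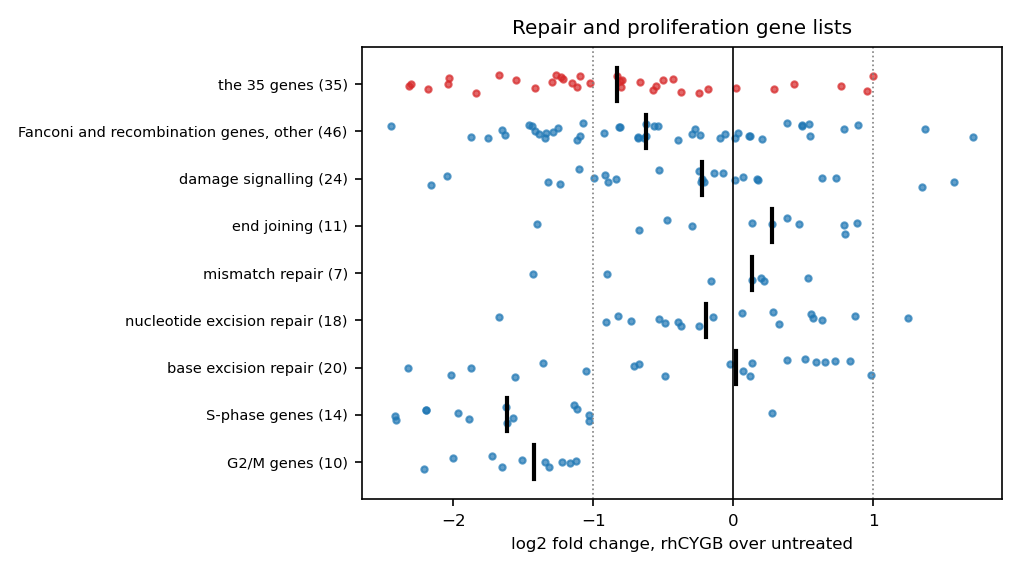
Log2 fold change of each tested gene (points, spread vertically for visibility) in the 35 genes and in the other lists, with the number tested in brackets and the median as a bar. The medians run from -1.62 for S-phase genes to 0.28 for end joining (0.11 with total counts), with the 35 genes at -0.83.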

How the data were processed

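Gene and transcript tables of 6 RNA-seq libraries of MIA PaCa-2 cells were used, 3 untreated and 3 given rhCYGB, grouped by the sample titles. The authors prepared stranded mRNA libraries, checked reads with FastQC 0.11.7, mapped trimmed reads with HISAT2 2.1.0 and assembled transcripts with StringTie 2.1.3b, versions as in the submitters' processing notes. Those notes name mm10, a mouse build, whereas the tables hold human RefSeq genes. The tables name no build and their positions reach 249231298 on chromosome 1. Their gene positions differ from those of GRCh38.p14, in which the promoter stretches are given, and cannot be set directly beside them. The read counts deposited by the authors are whole numbers without normalization, and their deposited FPKM are scaled to transcript length and depth. Each table also held 6 columns of TPM, which were left aside.

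Counts were analysed with edgeR 4.0.16 in R 4.3.3 (filterByExpr, TMM, then glmQLFit and glmQLFTest with group as the one term, over the 6 libraries). Of 35993 genes, 14728 were tested, holding 99.97% of counts, and p-values were adjusted over all of them by Benjamini-Hochberg. Called genes also changed by 2-fold. A CPM value of between 0.0669 and 0.0902 corresponds to the floor of 3 counts, which covers counting error only. Alternatives were other scalings, DESeq2 1.42.0, limma 3.58.1 on log2(FPKM + 1) and log2(FPKM + 0.1), other filters, summed transcript counts, other call rules, a replicate block and omission of each library in turn. Promoter windows are those of RefSeq in GRCh38.p14, present for 32 of 35 members. Protein sequences were not analysed here, and the values of some genes of the lists are not reported here.

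The members and lists were chosen with earlier results of these data known. Values in every library were given for the 10 members with the largest change, for the largest and smallest change in each role and, as a choice made after the values were seen, for the members that were higher. Pairs of partner genes were chosen after values were seen. Of other lists, up to 3 of the lowest and 3 of the highest genes were named, with EME1 and CDT1 added after their values were seen.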

Additional observations from a re-analysis of the deposited data

How the results depend on the processing

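The count of 17 members lower by 2-fold was unchanged with DESeq2, DESeq2 size factors, total counts, upper-quartile scaling, both other count filters, summed transcript counts, an adjusted p under 0.01, the replicate block and the omission of any single library. It was 12 with limma on log2(FPKM + 1), 18 on log2(FPKM + 0.1), 21 with glmTreat against 1.5-fold and 29 at the adjusted p alone, where 5 were higher; glmTreat gave 3 higher, and leaving out 1 library between 0 and 1. With limma on log2(FPKM + 1), which shrinks low genes by construction, BRCA2, FANCA, FANCB, FANCD2 and FANCM fell short of 2-fold. The members' median was -1.01 on log2(FPKM + 0.1), -0.998 with total counts and -0.97 with upper-quartile scaling, where the median of all genes also shifted by -0.147, -0.165 and -0.141, and lay between -0.96 and -0.81 without 1 library. For the pathway genes outside the members it was -0.74 on log2(FPKM + 0.1), -0.58 on log2(FPKM + 1), -0.79 with total counts, -0.77 with upper-quartile scaling and between -0.65 and -0.59 without 1 library, and 30 were lower and 9 higher at the adjusted p alone and 4 higher with glmTreat. The mismatch repair median of 0.13 turned to -0.033 with total counts and -0.0092 with upper-quartile scaling, and damage signalling had 9 and 8 genes lower by 2-fold there against 5. Over all genes 3998 were called, against 1977 with limma on log2(FPKM + 1) and 11427 at the adjusted p alone. Causes were not tested. Whether equal replicate numbers pair libraries is not stated. Correlations of deviations across genes ran from -0.0479 to 0.00715 for equal numbers and from -0.0551 to 0.0536 for unequal ones. With 3 libraries per group these values cannot decide it. The replicate block gave 17 members lower, 0 higher and a median of -0.83. The planned comparison of protein sequences was not run.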

Other observations

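Of 20 tested base excision repair genes, 9 passed edgeR's test as lower (45%, against 38.6% of all genes tested) and 7 as higher (35%, against 39%), with 6 lower and 0 higher by 2-fold or more (30% lower, against 14.7% of all genes). The median was 0.023 on the log2 scale, -0.14 with total counts, -0.12 with upper-quartile scaling, -0.27 on log2(FPKM + 0.1) and -0.18 on log2(FPKM + 1). Lowest were FEN1, the flap nuclease of lagging-strand synthesis (-2.32), PARP1 (-2.02) and NEIL3 (-1.88), and LIG3 (0.98), POLB (0.84) and MUTYH (0.73) were highest. PARP1 was at 394 CPM in untreated and 97.4 CPM in treated libraries.

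Of 7 mismatch repair genes, 3 were lower (42.9%, against 38.6% of all genes tested) and 4 higher (57.1%, against 39%). Their median was 0.13. The calls of MSH3, PMS1 and PMS2 as higher were lost with total counts, upper-quartile scaling and limma on the FPKM values. The PMS1 call was also lost with DESeq2, DESeq2 size factors and both other count filters. Leaving out rhCYGB replicate 1 or 3, or untreated replicate 1 or 2, lost it too. The call of MLH3 as lower was lost with DESeq2, without a filter on low counts and without rhCYGB replicate 3 or untreated replicate 1 or 2. Of 18 nucleotide excision repair genes, 10 were lower (55.6%) and 7 higher (38.9%), between CETN2 (-1.67) and UVSSA (1.25). Their median was -0.19, and -0.36 with total counts, -0.34 with upper-quartile scaling, -0.35 on log2(FPKM + 0.1) and -0.32 on log2(FPKM + 1).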
